A study of Mus musculus with 6 samples.

Results

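Scavenger receptors are a structurally mixed group of cell surface and secreted proteins through which macrophages take up modified lipoproteins, dying cells, microbes and other polyanionic or glycosylated cargo. Members of class A (Msr1, Marco, Colec12) carry collagen-like stalks, class B members (Cd36, Scarb1) are looped membrane proteins that bind fatty acids and lipoproteins, and the remaining genes encode the stabilin Stab1, the mannose receptor Mrc1, the lysosomal sialomucin Cd68, the lectin-like oxidised LDL receptor Olr1 and the secreted macrophage protein Cd5l. The 10 genes, of 18193 with a probe set of their own, were followed through the 18 probe sets whose only gene in the platform annotation was a member, out of 45037 non-control probe sets on the array. Of the 18, 17 lay above the intensity filter and were tested, and the single probe set of Olr1 was not.

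The arrays came from bone marrow macrophages of C57BL/6 mice, either wild type (WT, 3 arrays) or carrying a knockin mutation (KI, 3 arrays). All 6 cultures had received M-CSF at 44 ng/ml, which sustains macrophage precursors, and RANKL at 100 ng/ml, which directs them towards osteoclasts, for 24 hours. The title of the series names the IVVY motif in the cytoplasmic part of the RANKL receptor RANK, and the comparison addresses which genes depend on it. Which residues were altered, and whether on both alleles, the labels leave unsaid, and they do not tell whether the arrays of a genotype came from separate mice or cultures. The p-values therefore measure only the spread between these arrays, which may be technical. No array without RANKL was analysed here.

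Values are the deposited probe set intensities on a linear scale, and a log2 difference is always KI minus WT after a floor at an intensity of 16. WT 1 stood apart within its group, with a median absolute log2 difference of 0.18 and 0.19 from WT 2 and WT 3, which differed from each other by 0.08. KI 1 lay 0.16 and 0.13 from KI 2 and KI 3, which differed from each other by 0.08. Of all tested genes, taken by their brightest probe set, 20.9% were called higher and 27.0% lower. Of the macrophage markers all 12 listed were tested and 11 rose in KI (summed intensity 149525 to 205034 on the WT arrays and 250493 to 262524 on the KI arrays). Of 9 tested osteoclast markers 7 fell (summed intensity of the 10 measured 70544 to 81134 in WT and 32701 to 36537 in KI). Of 10 tested neutrophil markers 7 rose (summed intensity of the 11 measured 17177 to 21583 in WT and 24352 to 47842 in KI). Of the markers of dendritic, endothelial, stromal and lymphoid cells 2, 3, 6 and 2 were tested, and only the endothelial list held calls, 1 lower and 1 higher, the latter being the scavenger receptor Stab2. The endothelial sums were 822 to 1063 in WT and 858 to 892 in KI, and the stromal sums varied widely within both groups, from 3251 to 10594 in WT and from 3257 to 12306 in KI. WT 1 had the lowest macrophage sum of the WT arrays (149525), their highest osteoclast sum (81134) and their highest stromal sum (10594). No marker was below the floor on all arrays in any of the 7 lists. The part of such shifts in cell makeup in the results below was not tested, and in RNA from whole cultures more cells of a type and more RNA per cell cannot be told apart.

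All 17 tested probe sets, of 9 genes, rose in KI cells (limma, Benjamini-Hochberg adjusted p under 0.05 over 22518 probe sets), where 19.3% of all tested probe sets were called higher in KI, 25.6% lower and 44.9% in either direction. Their median log2 difference was 1.27, against -0.04 over all tested probe sets. For 16 of the 17 the KI and WT arrays did not overlap, always with KI above; over all tested probe sets 60.9% did not overlap and 26.1% had every KI array above every WT array. A 2-fold rise was reached by 9 probe sets of 6 genes, where 4.19% of tested probe sets were called at least 2-fold higher. Of the 17, 16 lay above the filter in both groups; the exception was a Cd36 probe set that passed only through its KI level. The calls of Msr1, Scarb1 and Cd68, and the direction of Cd68, depended on the scaling. Both kinds of spike-in scaling, which set each array to added bacterial and phage control transcripts, left 16 of the 17 differences positive; 12 probe sets rose under the current control probe sets and 9 under the older ones and 0 were lower under either. The median over all tested probe sets was then -0.25 and -0.57. The scalings thus shifted the arrays by unlike amounts, and which lies nearer to the RNA input was not tested. Under the older one the standard errors (SE) became more alike, with 0.27 for Colec12 and 0.25 for Mrc1, against 0.09 and 0.38 as deposited. With those scalings 11.3% and 3.23% of all tested probe sets were called higher.

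**Figure D1:**
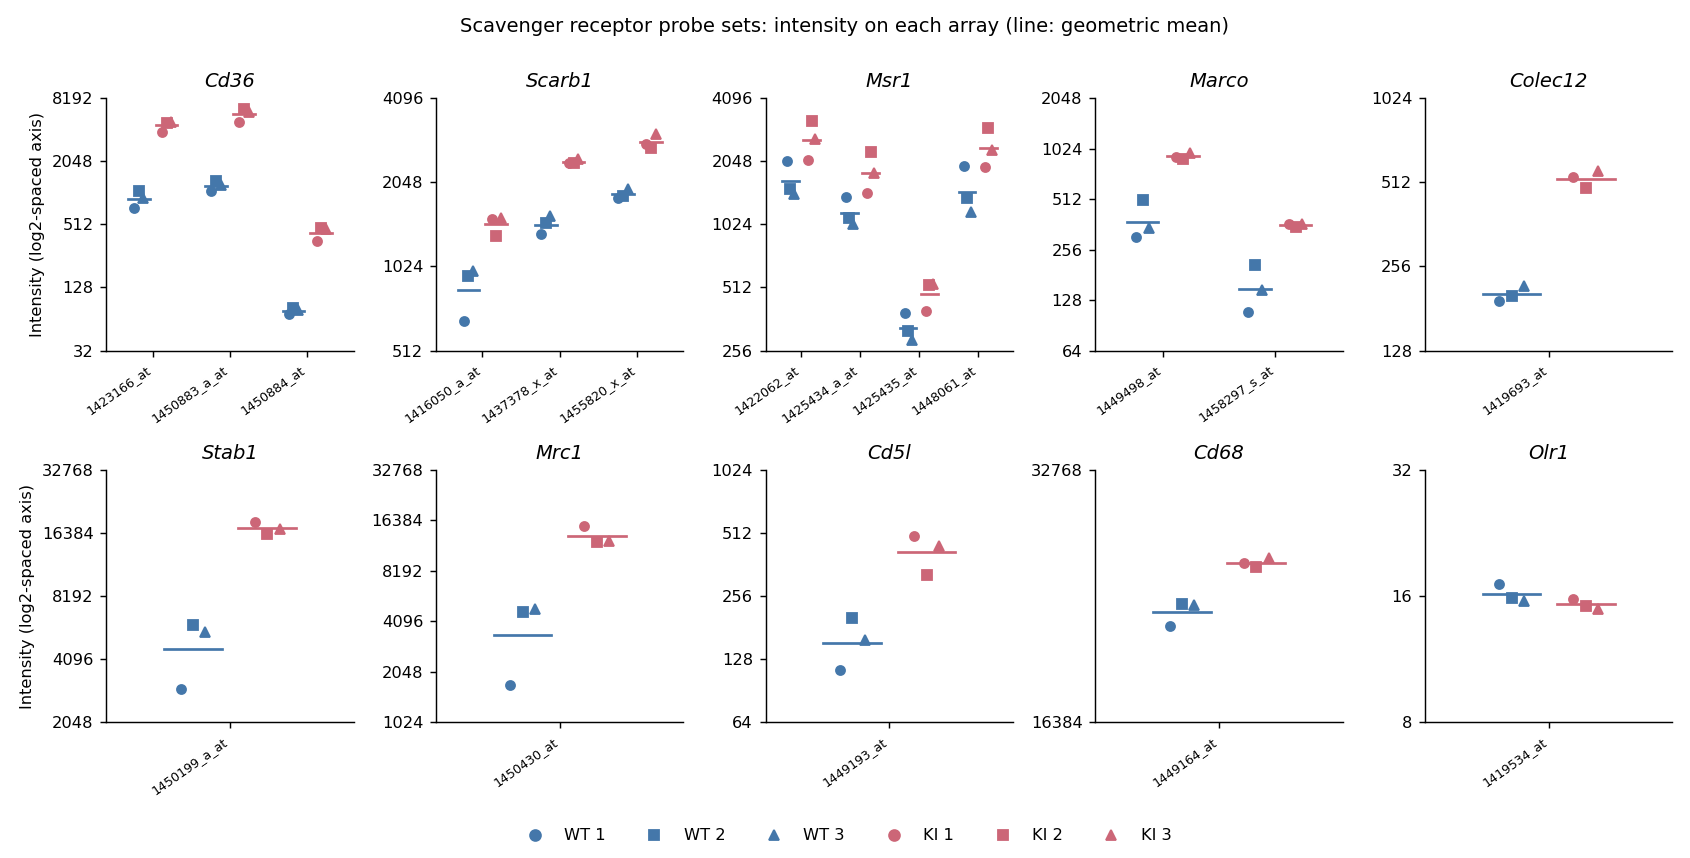
Intensity of each of the 18 scavenger receptor probe sets on each array, on a log2-spaced vertical axis that differs between panels; blue marks are WT and red marks KI arrays, the marker shape gives the replicate number, and lines are geometric means. KI arrays lie above all WT arrays for every probe set of Cd36, Scarb1, Marco, Colec12, Stab1, Mrc1, Cd5l and Cd68, 1 of the 4 Msr1 probe sets overlaps, and Olr1 lies near the floor of 16.

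Among the class B receptors, Cd36, which takes up long-chain fatty acids and oxidised LDL, had the largest rise of the group. Its brightest probe set, 1450883_a_at, had intensities of 1061, 1330.4 and 1213 on WT 1, WT 2 and WT 3 and of 4859, 6394 and 6089 on KI 1, KI 2 and KI 3. Every KI array was thus far above every WT array, and the lowest KI value was that of KI 1. The log2 difference was 2.26 (SE 0.13, 95% interval 1.95 to 2.57, adjusted p = 0.00020 by limma), a 4.80-fold rise. The 2 further probe sets of Cd36 gave 2.34 (1423166_at) and 2.47 (1450884_at), with adjusted p of 0.00027 and 0.00020, so that each estimate lay within the intervals of the other two. The dimmest of them, 1450884_at, rose from 76.9 ± 5.30 (SD, n = 3) in WT to 430.5 ± 68.5 (SD, n = 3) in KI. Its WT mean lay below the filter, so that it was tested through its KI level alone. Over the alternatives in which each was tested (17 for 1450884_at, 18 for the other two), the 3 differences ranged from 1.73 to 2.61 and stayed past the threshold.

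Scarb1 encodes SR-BI, the class B receptor for high-density lipoprotein that moves cholesteryl esters across the plasma membrane. The intensities of 1455820_x_at were 1804, 1832 and 1941 on the WT arrays and 2813, 2719.7 and 3051 on the KI arrays. The groups were separate and each was tight, and KI exceeded WT by 0.62 on the log2 scale (SE 0.07, limma adjusted p = 0.0015). The probe sets 1437378_x_at and 1416050_a_at differed by 0.75 (SE 0.08) and 0.78 (SE 0.17). On 1416050_a_at, WT 1 was the low array, with 653 against 944 and 984 on the other WT arrays. Its call was lost once the number in each sample's description entered the model as a covariate (0.77, SE 0.25, limma adjusted p = 0.066). Those numbers were mostly higher for the KI than for the WT arrays, so covariate and genotype are partly confounded. All 3 calls ended under the older spike-in scaling, where the differences were 0.091, 0.22 and 0.25.

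Of the class A receptors, Marco, which binds unopsonised particles and bacteria, rose on both of its probe sets. On 1449498_at the WT arrays had 304, 506 and 346 and the KI arrays 912, 883 and 966. The KI values were nearly equal while the WT values spread more, and the groups did not overlap. The log2 difference was 1.29 (SE 0.18, adjusted p = 0.0027 by limma), or 2.44-fold, and that of 1458297_s_at was 1.27 (SE 0.22, adjusted p = 0.0048). Colec12, a collectin with a collagen-like stalk and a C-type lectin domain, had 192, 201 and 217 on the WT arrays and 535, 490.2 and 562 on the KI arrays. Both groups were tight, and the log2 difference was 1.38 (SE 0.09, adjusted p = 0.00027), or 2.60-fold.

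Msr1, the founding class A receptor for acetylated LDL, rose less, and its adjusted p-values were the nearest to the threshold among the tested members. Its brightest probe set, 1422062_at, had 2056, 1518 and 1433 on WT 1, WT 2 and WT 3 and 2079.8, 3206 and 2625 on KI 1, KI 2 and KI 3. KI 1 exceeded WT 1 by very little, while KI 2 and KI 3 lay above all WT arrays. The log2 difference was 0.66 (SE 0.19, 95% interval 0.20 to 1.12, adjusted p = 0.031 by limma). The further probe sets differed by 0.64, 0.55 and 0.69 with adjusted p of 0.030, 0.030 and 0.043, and on 1448061_at, where WT 1 had 1948 and KI 1 had 1919, the groups overlapped. All 4 calls ended when any of WT 2, WT 3, KI 2 or KI 3 was left out; for 1422062_at the adjusted p was then 0.092, 0.089, 0.083 and 0.089. Without WT 1 its difference was 0.82 (adjusted p = 0.010), and without WT 1 and KI 1 it was 0.98. The 4 calls also ended with no intensity filter (0.097 for this probe set), under the covariate (0.24) and under either spike-in scaling (0.14 and 0.69).

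WT 1 lay on opposite sides for Msr1 and for the rest. Its log2 value was above the mean of WT 2 and WT 3 on all 4 Msr1 probe sets, by 0.35 to 0.62, and below it on the 13 other tested probe sets, with deviations from -0.064 for Scarb1 1455820_x_at to -1.46 for Mrc1. Of all probe sets called higher in KI, 80.4% had WT 1 below that mean, against 42.9% of all tested probe sets.

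**Figure D2:**
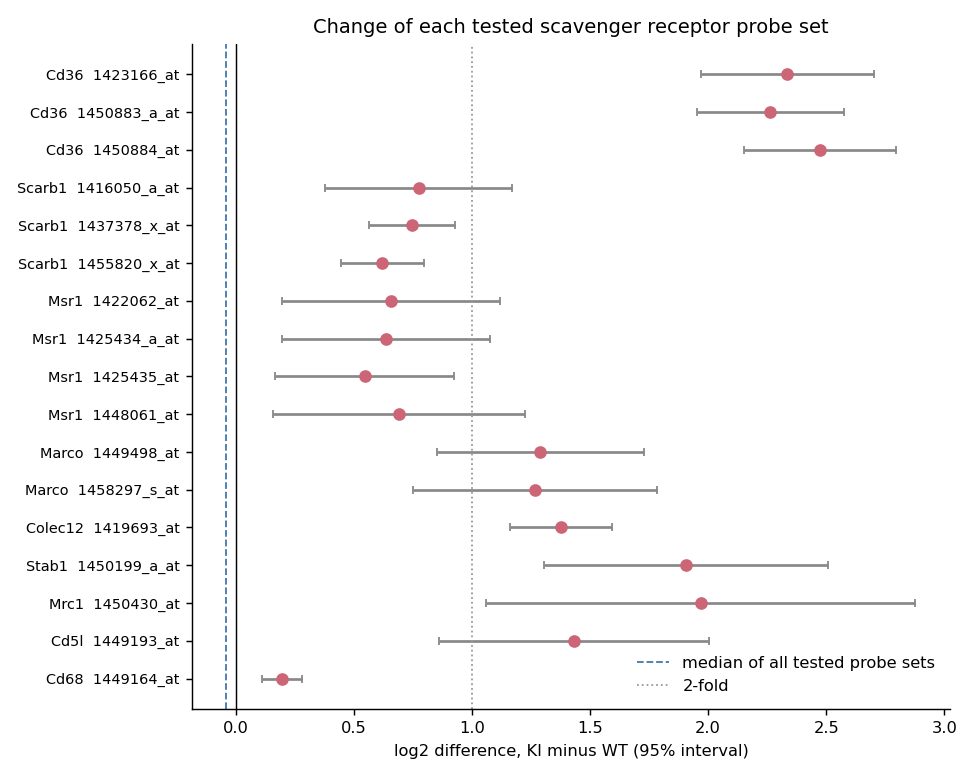
Log2 difference (KI minus WT) of the 17 tested probe sets with 95% intervals from limma, 3 arrays in each group; the dashed line is the median of all tested probe sets (-0.04) and the dotted line a 2-fold rise. The intervals of the 3 Cd36 probe sets begin at 1.95 or above, those of the Scarb1 and Msr1 probe sets begin below 1, and that of Cd68 lies nearest to 0.

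Stab1 and Mrc1, which both mark alternatively activated and tissue macrophages, had the largest rises after Cd36. Stab1 encodes stabilin-1, a receptor that clears acetylated LDL, the matrix protein SPARC and phosphatidylserine-bearing cells. Its intensities were 2946, 5952 and 5526 on the WT arrays and 18570.1, 16133 and 17032 on the KI arrays. Even the highest WT array was far below the lowest KI array, and WT 1 was the lowest of all. The log2 difference was 1.91 (SE 0.25, adjusted p = 0.0021 by limma), a 3.75-fold rise, and without WT 1 it was 1.59.

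Mrc1, the mannose receptor CD206, binds glycoproteins ending in mannose, fucose or N-acetylglucosamine. Its probe set had 1716, 4650.0 and 4817 on the WT arrays and 15248, 12181 and 12379.8 on the KI arrays. WT 1 was again far below its group, which gave Mrc1 the widest interval (log2 difference 1.97, SE 0.38, 95% interval 1.06 to 2.88, adjusted p = 0.0073 by limma). The rise was 3.91-fold with all arrays; on the log2 scale it was 1.48 without WT 1 (adjusted p = 0.00022) and 1.38 without WT 1 and KI 1.

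Cd5l encodes AIM, a secreted protein of scavenger receptor cysteine-rich domains that supports macrophage survival and lipid handling. The WT arrays had 113, 200.3 and 157 and the KI arrays 494, 321 and 444. KI 2 was the lowest KI array but lay above every WT array, and the log2 difference was 1.43 (SE 0.24, adjusted p = 0.0045 by limma), or 2.70-fold.

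Cd68, a heavily glycosylated protein of late endosomes and lysosomes used to stain macrophages and osteoclasts, rose by the least. Its WT intensities were 21342, 22651 and 22592 and its KI intensities 25400.5, 25124 and 25690.2. The groups were separate and narrow, and KI exceeded WT by 0.20 on the log2 scale (SE 0.04, limma adjusted p = 0.0060), or 1.15-fold. The difference turned to -0.011 (adjusted p = 0.90) and -0.33 (adjusted p = 0.20) under the current and the older spike-in scaling. Olr1, the lectin-like receptor LOX-1 for oxidised LDL, had between 14.9 and 17.1 on all arrays, and 5 of the 6 values lay below the floor. No difference was measurable at that level.

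In the order of the log2 differences, taking each gene by its brightest probe set, Cd36 (2.26) was followed by Mrc1 (1.97), Stab1 (1.91), Cd5l (1.43), Colec12 (1.38), Marco (1.29), Msr1 (0.66), Scarb1 (0.62) and Cd68 (0.20). Neighbours in that order were compared by the difference of their log2 values within each array, in 8 two-sided exact permutation tests whose smallest possible p is 0.1. The pairs were set by the same log2 differences and no pair could pass 0.05, so these tests cannot decide the order. The KI and WT arrays separated for only 2 neighbouring pairs. The rise of Stab1 exceeded that of Cd5l by 0.47 (SE 0.18) and the rise of Scarb1 that of Cd68 by 0.43 (SE 0.05), each with an exact p of 0.1 and an adjusted p of 0.40. The other 6 pairs overlapped, with Cd36 and Mrc1 apart by 0.30 (SE 0.46) and Marco and Msr1 by 0.63 (SE 0.39).

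**Figure D3:**
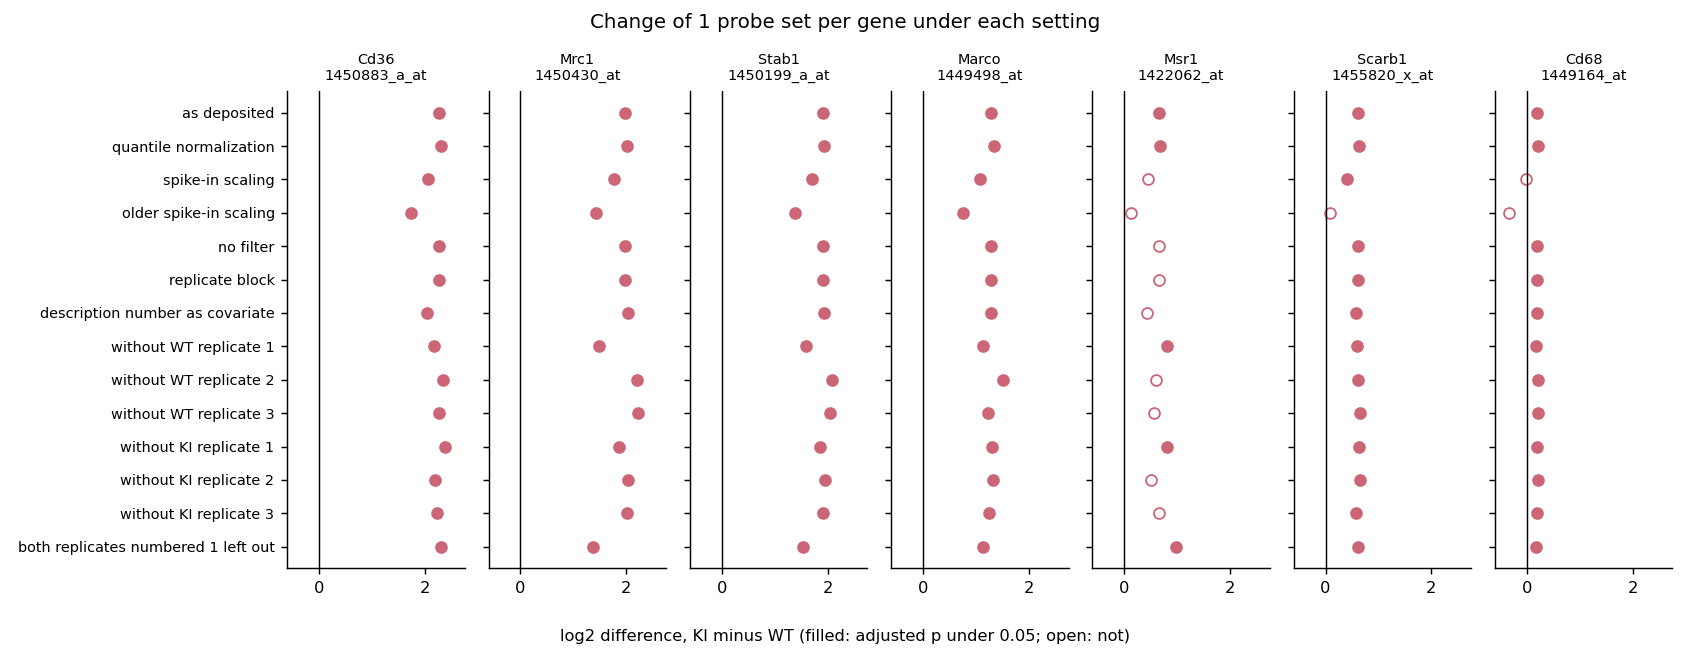
Log2 difference (KI minus WT) of 1 probe set for each of 7 genes, under the deposited values and 13 alternative settings; filled marks have an adjusted p under 0.05 and open marks do not. Cd36, Mrc1, Stab1 and Marco stay filled in every setting drawn, Msr1 (0.66 as deposited) is open in many of them, and Cd68 crosses 0 under the spike-in scalings.

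The stretch before the annotated start is shown for the members with at least a 2-fold rise and an entry in the RefSeq promoter table. The table (assembly GRCm38.p6) held 7 of the 10 members: Cd36, Marco, Cd68, Stab1, Mrc1, Olr1 and Cd5l. The 250 bases before the start follow, 5′ to 3′ on the strand of the gene, with capitals at every match to a searched motif on either strand.

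Cd36 (chr5:17835897-17836146, minus strand): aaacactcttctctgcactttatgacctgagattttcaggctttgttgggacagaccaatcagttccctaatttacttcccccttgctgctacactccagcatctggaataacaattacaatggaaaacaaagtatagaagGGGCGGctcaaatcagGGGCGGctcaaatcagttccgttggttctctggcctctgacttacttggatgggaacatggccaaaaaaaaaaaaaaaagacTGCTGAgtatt
Mrc1 (chr2:14229164-14229413, plus strand): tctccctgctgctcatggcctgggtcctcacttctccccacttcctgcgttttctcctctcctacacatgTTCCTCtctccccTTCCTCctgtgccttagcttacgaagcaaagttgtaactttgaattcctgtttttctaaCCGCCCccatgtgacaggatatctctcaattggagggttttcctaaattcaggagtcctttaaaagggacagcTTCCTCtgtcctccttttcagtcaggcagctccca
Stab1 (chr14:31168642-31168891, minus strand): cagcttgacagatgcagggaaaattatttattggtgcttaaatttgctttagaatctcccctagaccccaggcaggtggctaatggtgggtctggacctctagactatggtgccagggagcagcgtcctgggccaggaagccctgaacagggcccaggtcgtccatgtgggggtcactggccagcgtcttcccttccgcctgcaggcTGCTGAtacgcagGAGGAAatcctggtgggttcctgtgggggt
Marco (chr1:120505025-120505274, minus strand): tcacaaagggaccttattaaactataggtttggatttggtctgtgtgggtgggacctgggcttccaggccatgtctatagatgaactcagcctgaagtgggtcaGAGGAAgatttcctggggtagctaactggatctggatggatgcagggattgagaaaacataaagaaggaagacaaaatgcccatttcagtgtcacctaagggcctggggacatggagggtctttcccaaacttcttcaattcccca
Cd5l (chr3:87357631-87357880, plus strand): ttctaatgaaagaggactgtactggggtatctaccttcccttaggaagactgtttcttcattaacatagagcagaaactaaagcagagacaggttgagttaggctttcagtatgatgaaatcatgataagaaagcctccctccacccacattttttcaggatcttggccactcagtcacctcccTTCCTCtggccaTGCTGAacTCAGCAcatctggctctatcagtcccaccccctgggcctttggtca

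The 7 motifs searched were the PU.1 core GAGGAA, the AP-1 site TGANTCA, the MAF recognition core TGCTGA, the E-box CACGTG, the C/EBP site TTGCNNAA, the GC box GGGCGG and the TATA box TATAAA, and no matches overlapped in these windows. The core of PU.1, the myeloid ETS factor, was found in 6 of the 7 windows (all but that of Cd36), against 23.3% of 32851 promoter windows of the same length; these 6 include Cd68 and Olr1, the genes with the smallest and with no measurable difference. The MAF core was in the windows of Cd36, Stab1 and Cd5l (16.1% of all windows), and the GC box in those of Cd36, Mrc1 and Cd68 (32.7%). AP-1 sites were in the windows of Cd68 and Olr1 (6.75% of all windows), and the C/EBP site in that of Cd68 (9.56%). The E-box and the TATA box matched in 0 of the 7, against 6.02% and 12.4% of all windows. These are matches of letters near 1 annotated start of each gene, and no binding was measured.

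Genes that read or act on the same cargo were taken from lists, each gene by its brightest probe set, with 20.9% of 10941 tested genes called higher and 27.0% called lower. Of 11 other scavenger receptors tested, 7 rose, 0 fell and 4 did not pass, with a median log2 difference of 0.86. Cd163, the receptor for haemoglobin bound to haptoglobin, rose by 2.62 (SE 0.20, adjusted p = 0.00048 by limma), from 40.1 ± 10.3 to 241 ± 25.4 (SD, n = 3 each). Lrp1, a large endocytic receptor of the LDL receptor family, rose by 1.07, Stab2, the hyaluronan-binding homologue of Stab1, by 1.17, the lipopolysaccharide co-receptor Cd14 by 1.04 and the lysosomal class B protein Scarb2 by 0.86. Cd163 and Stab2 passed the filter only through their KI level. Those that did not pass were Scarf1 (0.40, adjusted p = 0.092, and 0.53 with 0.046 without WT 3), Cd163l1 (0.10), Ager (0.082) and Cd44 (-0.03). Vldlr, a lipoprotein receptor of the LDL receptor family, lay below the filter and was not tested, with 74.3 ± 5.60 in WT and 34.6 ± 6.96 in KI (SD, n = 3 each). With no filter Vldlr was called lower (-1.12, limma adjusted p = 0.014), and 5 of these receptors rose. Without KI 3, 4 of these receptors rose, and under the older spike-in scaling 3, where the calls of Lrp1 (0.54), Cd14 (0.51) and Scarb2 (0.33) ended.

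Of 16 tested partners and signalling proteins of the scavenger receptors, 8 rose, 2 fell and 6 did not pass. Tlr2, which pairs with Cd36 at bacterial lipids, rose by 1.60 (SE 0.09, adjusted p = 0.00020 by limma), Tlr4 by 1.07 and the tetraspanin Cd81 by 1.04. The falls were those of the kinase Src (-1.77) and of Gga2 (-0.57), a sorting adaptor of the trans-Golgi network. Under the older spike-in scaling 2 of the 16 rose, and the calls of Tlr4 (0.54) and Cd81 (0.51) ended.

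Of 19 genes of lipid handling after uptake, 11 rose, 1 fell and 7 did not pass. Pparg, the fatty acid-sensing nuclear receptor that activates Cd36, rose by 1.83 (SE 0.16, adjusted p = 0.00061 by limma), from 112 ± 21.5 to 395 ± 33.9 (SD, n = 3 each), and its dimer partner Rxra by 1.59, on 1 of the 3 probe sets of that gene. The cholesteryl ester hydrolase Nceh1 rose by 1.33, the lysosomal acid lipase Lipa by 1.09 and the lipid droplet protein Plin2 by 0.34, a rise that was 0.13 (adjusted p = 0.20) under the current spike-in scaling and turned to -0.19 under the older one. Abcg1, which exports cholesterol to high-density lipoprotein, fell by 0.79 (SE 0.15, adjusted p = 0.0062). Of this list 7 rose, in place of 11, under the older spike-in scaling, with no filter or with the covariate. Lower calls were 2 without WT 1, and 3 and 4 under the current and the older spike-in scaling.

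Of 16 tested genes in a list of regulators, 9 rose, 2 fell and 5 did not pass, and their action on the members was not tested. Cebpb rose by 1.07 (SE 0.08, adjusted p = 0.00040 by limma), the oxidative stress factor Nfe2l2 by 0.96, the interleukin 4 effector Stat6 by 0.83 and the haem-sensing repressor Bach1 by 0.60, on 1 of its 2 probe sets. Fos, an AP-1 subunit, fell by 1.08 (SE 0.09, adjusted p = 0.00059). Spi1, which encodes PU.1, fell by 0.38 (SE 0.12) at an adjusted p of 0.042. The Spi1 call was lost on dropping WT 2 (adjusted p = 0.12), WT 3 (0.11), KI 1 (0.077), KI 2 (0.12) or KI 3 (0.088), and with quantile normalization (0.061), no trend in the variance (0.052), no filter (0.11) or the covariate (0.17). The remaining genes were Jun (0.48), Tfeb (0.31), Keap1 (0.16), Ets2 (0.35) and Mitf (0.056), of which Jun passed without WT 1 (0.69, adjusted p = 0.00074) and with quantile normalization (0.50, adjusted p = 0.049). Without WT 1 and KI 1, both Jun (0.73, adjusted p = 5.1e-05) and Ets2 (0.83, adjusted p = 0.00070) passed. With the covariate 5 regulators rose. Under the older spike-in scaling 3 regulators rose, and the calls of Cebpb (0.54), Nfe2l2 (0.43), Stat6 (0.30) and Bach1 (0.071) ended.

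Neighbouring receptor families of macrophages moved in the same direction. Of 14 tested Toll-like receptor genes with Cd14 and their co-receptors, 12 rose, 0 fell, and Tlr5 (0.24) and Tlr9 (-0.07) did not pass, with a median of 1.05. Tlr5 passed without WT 1 and KI 1 (0.38, adjusted p = 0.024). All 6 genes of the Fc gamma receptor list rose (median 1.55), from 0.56 for the signalling chain Fcer1g to 2.00 for Fcgrt. Of these calls Fcer1g was lost under the older spike-in scaling (0.030, adjusted p = 0.91), Fcgr4 (0.053) and Fcgrt (0.058) with no filter, and Fcgr3 (0.058) and Fcgr4 (0.074) with the covariate. The medians compare with 1.38 over the 9 tested scavenger receptor genes and -0.03 over all tested genes. The difference between these families was not tested, and Cd14, Tlr2, Tlr4, Tlr6 and Fcer1g stand in more than 1 of these lists. Under the older spike-in scaling 6 of the Toll-like receptor list rose and Tlr9 fell (-0.60, adjusted p = 0.041).

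**Figure D4:**
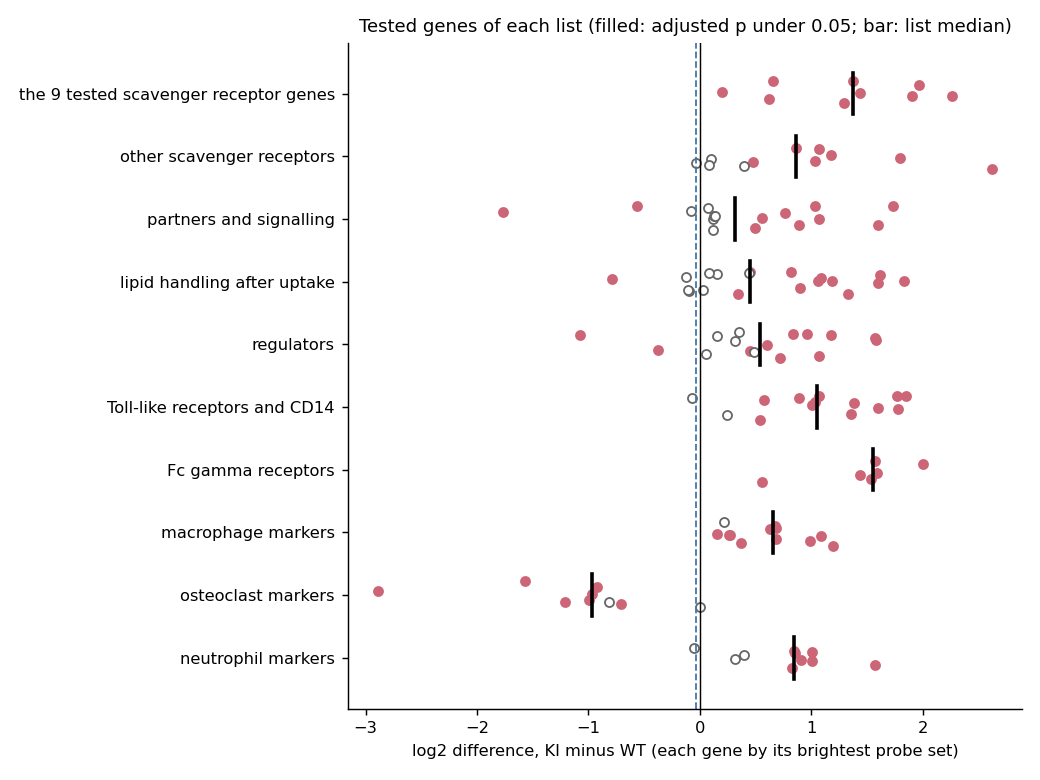
Log2 difference (KI minus WT) of each tested gene, by its brightest probe set, for the scavenger receptors and 9 lists; filled marks have an adjusted p under 0.05, open marks do not, the black bar is the list median, the dashed line the median of all tested genes (-0.03), and the vertical position within a list has no meaning. The 9 scavenger receptor genes lie between 0.20 and 2.26, and all 9 tested osteoclast markers lie below 0 except Itgb3, at 0.0046.

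The genes whose profile over the 6 arrays was most like that of Cd36, by the distance between centred log2 values of its probe set 1450884_at, were B430306N03Rik (distance 0.56, log2 difference 2.25), the endocytic adaptor Dab2 (0.65 and 2.22) and Mtus1 (0.67 and 2.17). That probe set was taken as the member with the smallest p, and it passed the filter through its KI level alone. Genes close to it must share its rise, so their log2 differences are no separate result.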

How the data were processed

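RNA of the 6 cultures was measured on Affymetrix mouse expression arrays. The deposited table gives an intensity for each probe set on each array. The authors made it with Affymetrix Expression Console, per the submitters' processing notes; its version and its summarisation and normalization steps were not stated in the labels. Array medians were close, so the intensities were taken as already normalized. No detection calls were used here.

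Intensities were floored at 16 and log2 transformed. Of 45037 non-control probe sets, 34945 had 1 gene symbol, and 34741 of those matched the reference gene table by gene identifier. The 22518 probe sets with a mean log2 above the median of all (an intensity of 84.7) were tested with limma 3.58.1 in R 4.3.3 (lmFit, eBayes with trend), KI against WT, with Benjamini-Hochberg adjustment and a threshold of 0.05. The number of arrays limits the precision.

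On simulated arrays with 22518 tested probe sets, 40.3% of changes of 0.5 on the log2 scale were recovered, 70.1% of changes of 1 and 84.8% of changes of 2, with 7 calls among unchanged probe sets. Only 67, 67 and 66 probe sets were changed there, with independent noise on each array. In the data 44.9% of tested probe sets were called, so the simulated shares do not carry over to them. Of the lists of other scavenger receptors, partners, lipid handling and regulators, the 5 genes with the smallest p are named. Those in counts of 5 or fewer are named too, chosen after their values were seen. From the Toll-like and Fc gamma receptor lists, genes are named for not passing, the range, lost calls or standing in several lists. Members and lists were chosen with earlier results of these data known. Alternatives covered normalization, filter, floor, variance prior, pairing, a covariate, left-out arrays and left-out _x_at and _s_at probe sets. Listed genes with no single-gene probe set were not analysed here.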

Additional observations from a re-analysis of the deposited data

How the results depend on the processing

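Directions of the 17 tested member probe sets held in every alternative run except that of Cd68 (-0.011 and -0.33 under the current and the older spike-in scaling). The count of members called higher was 17 as deposited, 12 under spike-in scaling, 9 under older spike-in scaling, 12 with the description number of each sample as a covariate and 13 with no filter; leaving out 1 array gave 13 to 17, and 0 were lower throughout. Leaving out 1 array gave 6793 to 9335 called probe sets over the whole table and 42 to 56 called genes of the related lists. The whole table gave 6481 calls with the covariate, and the related lists 35 with the covariate and 35 under older spike-in scaling. Covariate and genotype are partly confounded, as the description numbers are mostly higher for the KI arrays. The cause of these shifts was not tested. Of all probe sets called, 43% were higher in KI as deposited, 22% under spike-in scaling and 6.43% under the older one.

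Deviations of same-numbered arrays from their group means correlated at -0.40, -0.29 and -0.30 across tested probe sets, with no sign of pairing. Deviations within a group constrain each other, so this check cannot exclude a pairing. With the replicate number as a block 6184 probe sets were called, and 13 of the members, the 4 Msr1 probe sets being lost; of the other named genes Scarb2 (adjusted p = 0.0502), Fcgrt (0.055) and Spi1 (0.088) lost their calls.

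Other named genes that changed direction, with none past the threshold unless stated, were these. Under spike-in scaling Cd163l1 was -0.10, Ager -0.12, Keap1 -0.049 and Mitf -0.15. Under older spike-in scaling Cd163l1 was -0.43, Ager -0.45, Scarf1 -0.13, Plin2 -0.19, Jun -0.049, Tfeb -0.22, Keap1 -0.37, Ets2 -0.18, Mitf -0.47 and Tlr5 -0.29. Cd44 turned to 0.011 with quantile normalization and 0.22 without WT 1 and KI 1 (adjusted p = 0.013 by limma), and lay between -0.13 and 0.12 when 1 array was left out, above 0 without WT 1 (0.12) or KI 1 (0.063). Leaving out 1 array gave Mitf -0.032 (without WT 2) to 0.16, and Tlr9 -0.16 to 0.012 (without KI 1). Ager was -0.034 without WT 1 and KI 1, and Ets2 -0.075 with the covariate.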
